A study of Populus ussuriensis with 12 samples.

Results

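Vessel elements are the water-conducting cells of wood, and their formation is switched on by transcription factors of the NAC family. The 8 poplar genes described here belong to the vessel-type clade of these factors and were taken by their IDs from a table of 34699 gene IDs. They form 4 pairs: WND3A and WND3B (Potri.015G127400 and Potri.012G126500), WND4A and WND4B (Potri.019G083600 and Potri.013G113100), WND5A and WND5B (Potri.003G113000 and Potri.001G120000), and WND6A and WND6B (Potri.007G014400 and Potri.005G116800). The WND names come with the list of IDs. They were not checked against an annotation, since the deposited table gives IDs alone. All 8 IDs had a row.

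The libraries were made from roots of Populus ussuriensis, a poplar kept as clonal plants in vitro. Wild-type (WT) plants and plants overexpressing PuHox52 (PuHox52-OE, called OE below) had grown for 6 days on woody plant medium and then spent 3 weeks on a supply of normal nitrogen (N) or of low N. This gave 4 groups of 3 libraries, which the series' design text calls biological replicates: WT at normal N, OE at normal N, WT at low N and OE at low N. The sources used here do not give the promoter that drives PuHox52, the number of transgenic lines or the number of plants behind a library. They do not name the row that holds PuHox52 either, so the overexpression itself was not checked. Without such detail on the plants, p-values measure the spread between these libraries.

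In Arabidopsis, factors of this clade are called VND proteins (VASCULAR-RELATED NAC-DOMAIN). They turn on the wall-building, lignin-forming and cell-death programme of vessel elements, and a sister clade, the NST and SND1 proteins, does so in fibres. In poplar, members of both clades go by the name WND, for wood-associated NAC-domain proteins. Their targets include MYB regulators and the cellulose synthases of the secondary wall.

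All 8 genes were weakly expressed in these roots, at 0 to 4.16 FPKM (a gene's fragments relative to its length and to all mapped fragments of that library). FPKM carries no counts, but low values moved in steps that gave the depth of each library relative to WT, normal N, replicate 1. It ran from 1 to 1.22 at normal N and from 0.447 to 0.501 at low N, a 2.27-fold difference of the means. With these depths, all 96 values of the 8 genes came out as whole fragment numbers to within 0.05 (largest deviation 0.0313), taking the smallest whole numbers that give the observed ratios. True numbers could be a common multiple of these, which would narrow the intervals. The genes then rested on 31 fragments (WND4A) to 1385 fragments (WND6B) over the 12 libraries. Fold intervals below are exact 95% Clopper-Pearson intervals from these fragment numbers and cover counting error only.

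WND6B was the most abundant of the 8 genes in every group and did not overlap with the next gene in any of them. It held 43.2% of the summed FPKM of the 8 genes in WT at normal N, 48.8% in OE at normal N, 36.3% in WT at low N and 47.1% in OE at low N. In WT at normal N it was followed by WND4B, WND5A, WND6A, WND3B, WND5B and WND3A, with means from 1.13 down to 0.463 FPKM, and each neighbour in that order overlapped with the next. WND4A came last, and its highest library there, at 0.212 FPKM, lay under the lowest of WND3A, at 0.237. In OE at normal N the order was WND6B, WND4B, WND6A, WND5A, WND3B, WND3A, WND5B and WND4A, and the first 4 genes did not overlap with their neighbours down to WND5A. At low N the second place passed from WND4B to WND6A in both genotypes, and WND4B dropped to the seventh place. WND6A overlapped there with the next gene, which was WND5A in WT and WND3A in OE. WND4B overlapped with WND5B, the gene above it, in WT but not in OE.

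**Figure D1:**
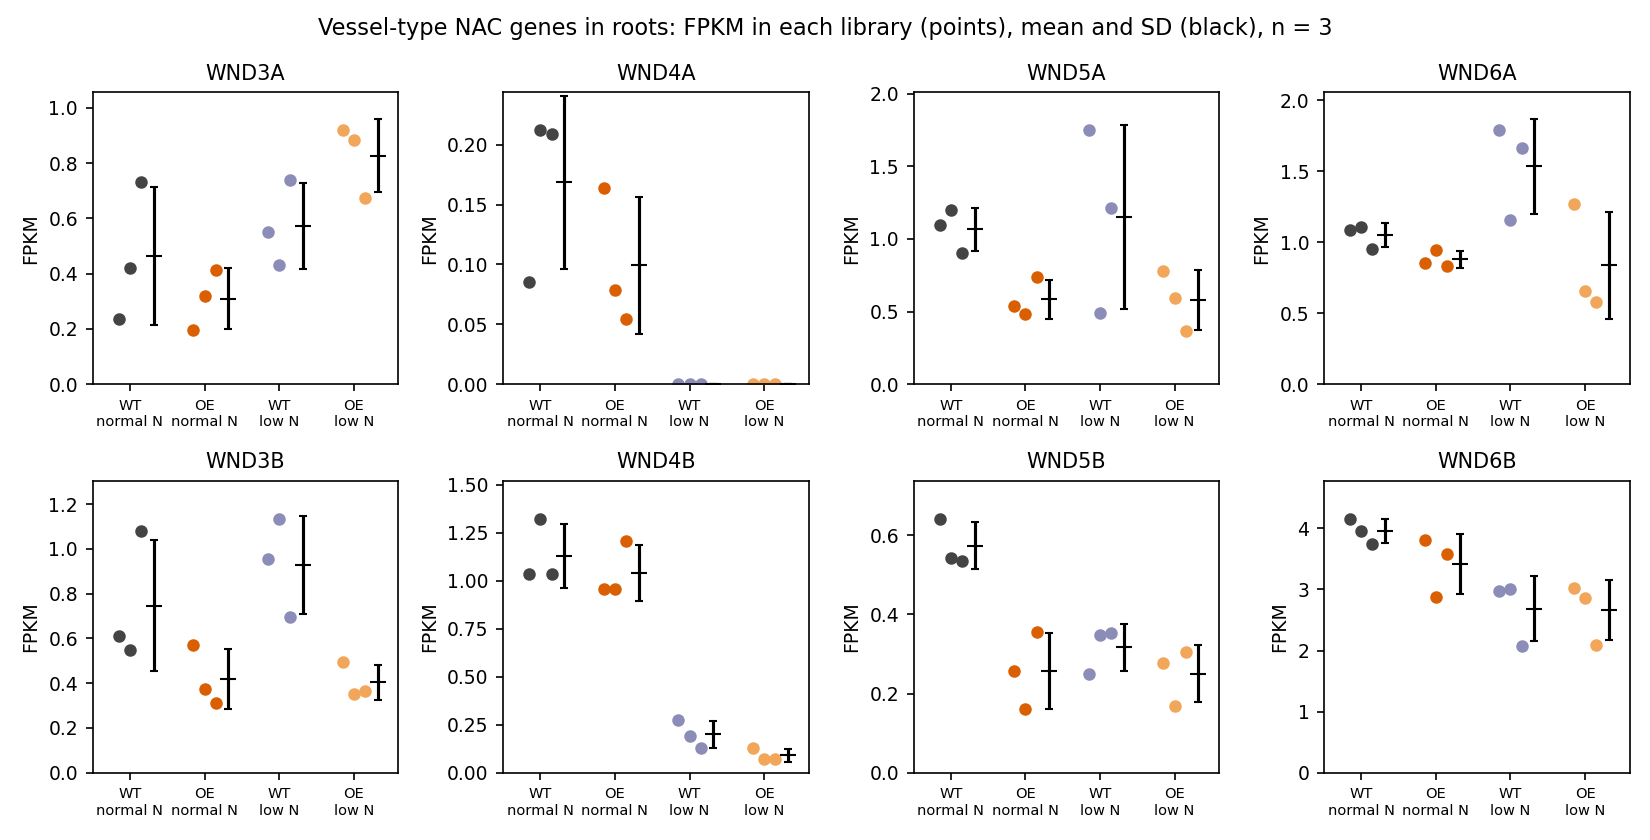
FPKM of each of the 8 vessel-type NAC genes (1 panel per gene, FPKM from 0 on the y axis) in the 12 libraries, by genotype and N supply; coloured points are libraries, the black mark is the mean and the bar the SD (n = 3). The low-N libraries of WND4B sit between 0.0697 and 0.275 FPKM, all below the normal-N libraries at 0.954 to 1.32, and WND4A is listed at 0 in all 6 low-N libraries.

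For the tests, the 24570 genes that reached 1 FPKM in 3 or more libraries were taken to log2(FPKM + 1) and fitted with limma in 1 model over all 12 libraries. A gene is called where its Benjamini-Hochberg adjusted p over all tested genes is under 0.05. WND4B, WND5A, WND6A and WND6B passed this filter. WND4B passed it through normal-N libraries alone, so its normal-N level was a condition of being tested. WND5A reached 1 FPKM in 4 libraries, all of them WT, and WND6A in 5 WT libraries and 1 OE library. Their WT level was likewise a condition of being tested, so their tests for genotype are also given from the fit without filter. WND3A, WND3B, WND4A and WND5B stayed below it, and their tests come from the same model fitted to all 31539 genes above 0 in any library. The log2(FPKM + 1) scale understates changes of genes this weak, so folds of mean FPKM are given beside it.

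The WND4 pair was nearly silent at low N in both genotypes, with WND4B down 5.67-fold in WT and 11.4-fold in OE. In WT, WND4B lay at 1.03, 1.32 and 1.04 FPKM at normal N and at 0.275, 0.193 and 0.130 FPKM at low N. In OE it lay at 0.955, 0.954 and 1.21 FPKM at normal N and at 0.131, 0.0697 and 0.0722 FPKM at low N. All low-N libraries were thus below all normal-N libraries in each genotype. WND4B fell by 0.83 ± 0.11 on the log2 scale in WT (SE; limma adjusted p = 2.51e-05) and by 0.90 ± 0.11 in OE (limma adjusted p = 1.17e-05). In the fit without filter, where its level set no condition, the adjusted p was 4.14e-06 in WT and 2.12e-06 in OE (limma). The low-N values rested on 9 fragments in WT and 4 in OE, against 111 and 107 at normal N, which gives counting intervals of 2.91 to 12.8 for the WT fold and 4.26 to 42.0 for the OE fold. The interaction test gave no call (-0.07 ± 0.16, limma adjusted p = 0.757), with a range of 2 SE from -0.39 to 0.25.

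WND4A was weak at normal N and listed at 0 in every low-N library. Its normal-N values were 0.0854, 0.212 and 0.209 FPKM in WT and 0.164, 0.0789 and 0.0547 FPKM in OE. These came from 19 fragments in WT and 12 in OE, against 0 at low N, where a count of 0 allows up to 3 fragments over a group, or 0.0582 FPKM in WT and 0.0609 in OE. Against that limit, WND4A was at least 2.94-fold lower at low N in WT and at least 1.68-fold lower in OE. With the counting error of the normal-N fragments included, the exact 95% interval of the fold starts at 2.16 in WT and 1.17 in OE. It passed the test without filter in WT (limma adjusted p = 0.00324) and barely in OE (limma adjusted p = 0.0459), where 13 of 19 alternative settings lost the call. WND4A was above 0 in normal-N libraries alone, so its normal-N level was a condition of entering that fit and of both calls.

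Neither gene of the WND4 pair passed the test for genotype. WND4B had a log2 fold change of OE against WT of -0.06 ± 0.11 at normal N (limma adjusted p = 0.732) and of -0.14 ± 0.11 at low N (limma adjusted p = 0.345). The low-N range of 2 SE ran from -0.36 to 0.09, and 13 fragments stood behind it, which gives a counting interval of 0.600 to 9.55 for the fold by which OE was lower. For WND4A at normal N the value was -0.09 ± 0.05 (limma adjusted p = 0.295). At low N both genotypes were listed at 0.

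The design sets a limit on every call for N supply or genotype. Per the labels, libraries were made and sequenced at 2 companies without a statement of which library went where. Neither N supply nor genotype can therefore be told apart from library batch. The N supplies also differed in inferred depth. In whole roots, fewer vessel-forming cells and less RNA per cell cannot be told apart either. Deposited scaling also matters: the median gene moved by 0.19 on the log2 scale between the N supplies in WT and by 0.22 in OE, and median-of-ratios scaling took these to 0.0021 and 0.0065. Under that scaling the log2 fold change of WND4B at low N was -0.879 in WT and -0.999 in OE (limma adjusted p = 1.55e-05 and 4.69e-06).

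In WT, low N came with a fall of WND6B, while the values of its partner WND6A were higher. WND6B went from 4.16, 3.96 and 3.75 FPKM at normal N to 2.97, 3.01 and 2.07 FPKM at low N in WT, with no overlap and a 1.47-fold lower mean. It fell by 0.44 ± 0.14 on the log2 scale (limma adjusted p = 0.0115), and the call was lost without WT low-N replicate 3 (-0.31, limma adjusted p = 0.0578). In OE, WND6B lay at 3.81, 2.87 and 3.58 FPKM at normal N and at 3.02, 2.86 and 2.10 FPKM at low N. These groups overlapped, and the log2 fold change of -0.28 ± 0.14 was not called (limma adjusted p = 0.0863). It was called after median-of-ratios scaling (-0.47, limma adjusted p = 0.00634), after quantile normalization (-0.60, limma adjusted p = 0.00117) and without OE normal-N replicate 2 (-0.37, limma adjusted p = 0.0453). WND6B showed no call for genotype, with -0.17 ± 0.14 at normal N and -0.01 ± 0.14 at low N (limma adjusted p = 0.397 and 0.967).

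WND6A was lower in OE than in WT at low N, with a 1.83-fold lower mean. At low N it lay at 1.79, 1.16 and 1.66 FPKM in WT and at 1.27, 0.660 and 0.581 FPKM in OE, so that OE replicate 1 reached above WT replicate 2. The log2 fold change was -0.48 ± 0.15 (limma adjusted p = 0.0168, and 0.0182 without filter). The call was lost without WT low-N replicate 1 (-0.40, limma adjusted p = 0.0673) or 3 (-0.44, limma adjusted p = 0.0535), without OE low-N replicate 2 (-0.41, limma adjusted p = 0.0597) or 3 (-0.38, limma adjusted p = 0.0643), and in a fit on these groups alone (limma adjusted p = 0.0814). At normal N the values were 1.08, 1.11 and 0.952 FPKM in WT and 0.854, 0.945 and 0.836 FPKM in OE. The genotypes did not overlap there, yet the difference of -0.12 ± 0.15 did not pass (limma adjusted p = 0.579).

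In WT, all low-N libraries of WND6A were above all normal-N libraries, a 1.46-fold higher mean that missed the threshold (0.30 ± 0.15, limma adjusted p = 0.0843). The call was made with library weights (0.32, limma adjusted p = 0.0248), without WT low-N replicate 2 (0.41, limma adjusted p = 0.0310) and without OE low-N replicate 1 (0.30, limma adjusted p = 0.0366). After median-of-ratios scaling the rise was 0.17 (limma adjusted p = 0.293), and the lowest value over 21 alternatives was 0.11. In OE the N supplies overlapped, at -0.05 ± 0.15 (limma adjusted p = 0.771), and after quantile normalization this was -0.36 (limma adjusted p = 0.0311). The interaction of -0.35 ± 0.21 was not called (limma adjusted p = 0.211), but was without OE low-N replicate 1 (-0.51, limma adjusted p = 0.0383). Without that library, WND6A entered the filtered fit through WT libraries alone, a condition on both calls made without it. In the fit of all libraries without filter, neither the interaction nor the WT rise was called (limma adjusted p = 0.223 and 0.0877). As a share of the pair, WND6A made up 20.3 to 21.9% in WT at normal N, 18.3 to 24.8% in OE at normal N, 27.8 to 44.5% in WT at low N and 18.7 to 29.7% in OE at low N.

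At normal N, both genes of the WND5 pair had lower values in OE than in WT, by 1.82-fold for WND5A and 2.23-fold for WND5B in the means. WND5B lay at 0.641, 0.543 and 0.535 FPKM in WT and at 0.256, 0.162 and 0.355 FPKM in OE, without overlap. It fell by 0.33 ± 0.07 on the log2 scale in the fit without filter (limma adjusted p = 0.00937) and lost the call after quantile normalization (-0.22, limma adjusted p = 0.0874). The counting interval of its fold, from 93 and 44 fragments, was 1.54 to 3.27. At low N, WND5B was at 0.248, 0.349 and 0.352 FPKM in WT and at 0.276, 0.168 and 0.304 FPKM in OE. Genotypes overlapped there (-0.08 ± 0.07, limma adjusted p = 0.449), and the interaction was not called (0.25 ± 0.10, limma adjusted p = 0.0929). Within WT, WND5B was 1.81-fold lower at low N without overlap (-0.26 ± 0.07, limma adjusted p = 0.00908), while within OE the difference was -0.01 ± 0.07 (limma adjusted p = 0.957).

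WND5A had WT values of 1.09, 1.20 and 0.903 FPKM and OE values of 0.540, 0.480 and 0.736 FPKM at normal N. These groups did not overlap, and the log2 fold change of -0.38 ± 0.19 did not pass (limma adjusted p = 0.166). Without filter the adjusted p was 0.188 (limma). In filtered fits, which WND5A entered through WT libraries alone, it passed with library weights (-0.41, limma adjusted p = 0.0162) and on these groups alone (limma adjusted p = 0.0163). At low N, WND5A was uneven in WT, at 1.75, 0.491 and 1.21 FPKM, against 0.778, 0.591 and 0.367 FPKM in OE. The difference of -0.41 ± 0.19 was not called with the filter (limma adjusted p = 0.0937) or without it (limma adjusted p = 0.105). With the filter and without WT low-N replicate 2, its lowest WT library, it was -0.65 (limma adjusted p = 0.00459), a call that carries the same condition. N supply gave values near 0 in both genotypes, at 0.02 ± 0.19 in WT and -0.01 ± 0.19 in OE (limma adjusted p = 0.942 and 0.961). In WT the sign turned to -0.10 after median-of-ratios scaling and to -0.17 after quantile normalization.

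**Figure D2:**
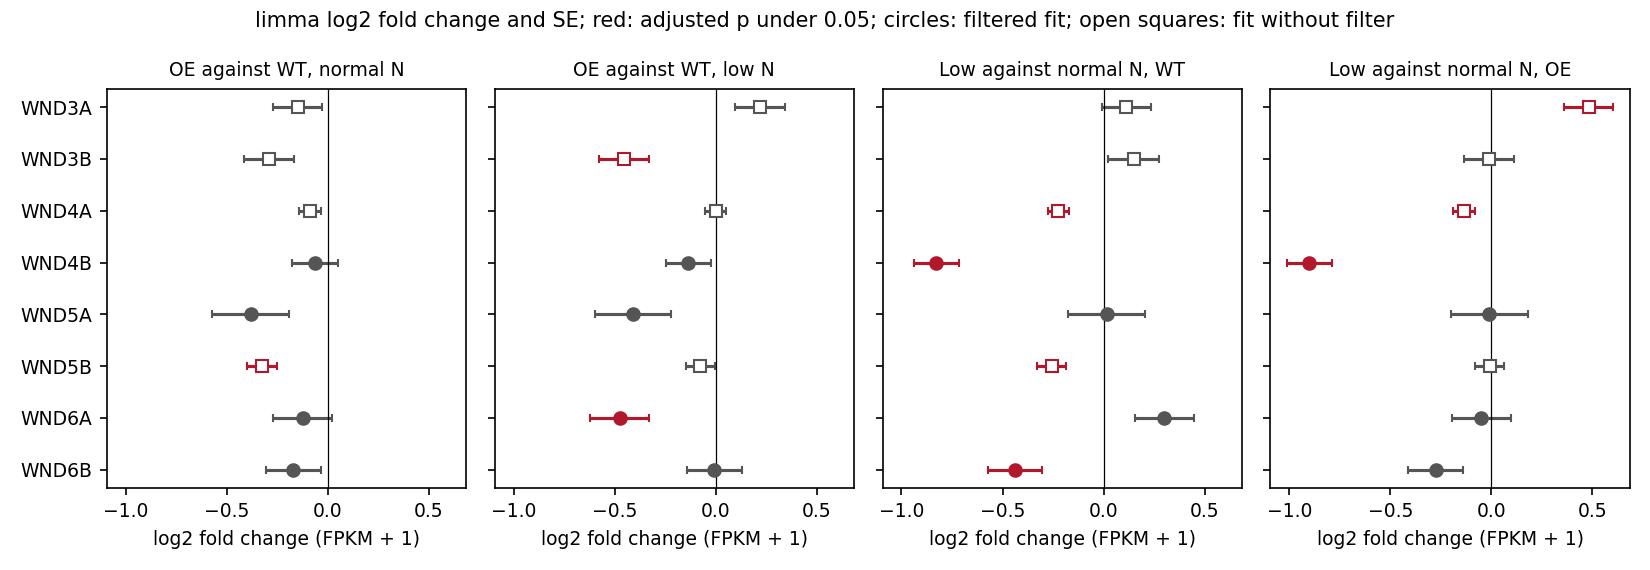
The log2 fold change of FPKM + 1 (x axis) with its SE for the 8 genes (y axis) in the 4 pairwise comparisons, from limma; circles come from the fit with the filter, open squares from the fit without it, and red marks an adjusted p under 0.05. WND4B lies farthest from 0 in both N comparisons, at -0.83 in WT and -0.90 in OE.

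In OE at low N, WND3A was the higher gene of the WND3 pair in all 3 libraries. WND3A lay at 0.237, 0.422 and 0.731 FPKM in WT at normal N, at 0.195, 0.319 and 0.414 FPKM in OE at normal N, and at 0.551, 0.430 and 0.738 FPKM in WT at low N. In OE at low N it reached 0.919, 0.885 and 0.675 FPKM, above all OE libraries at normal N. Within OE it rose by 0.48 ± 0.12 on the log2 scale (limma without filter, adjusted p = 0.00521), a 2.67-fold higher mean, with a counting interval of 1.82 to 4.13. After quantile normalization it did not pass (0.27, limma adjusted p = 0.0818). In WT the difference between N supplies was 0.11 ± 0.12 (limma adjusted p = 0.462), and the interaction of 0.37 ± 0.17 was not called (limma adjusted p = 0.144). Genotype gave no call for WND3A, with -0.15 ± 0.12 at normal N and 0.22 ± 0.12 at low N (limma adjusted p = 0.467 and 0.190).

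WND3B was lower in OE than in WT at low N. It lay at 0.953, 1.13 and 0.696 FPKM in WT and at 0.495, 0.351 and 0.364 FPKM in OE, so that no OE library reached a WT library. This was a 2.30-fold lower mean in OE, a fall of 0.45 ± 0.12 on the log2 scale (limma without filter, adjusted p = 0.0128), with a counting interval of 1.45 to 3.69 from 67 and 28 fragments. All 19 alternative settings kept the call. At normal N the values were 0.610, 0.549 and 1.08 FPKM in WT and 0.568, 0.376 and 0.312 FPKM in OE, which overlapped and were not called (-0.29 ± 0.12, limma adjusted p = 0.133). Low N gave no call in WT (0.15 ± 0.12, limma adjusted p = 0.336) or in OE (-0.01 ± 0.12, limma adjusted p = 0.959). The share of WND3A in the pair was 64.98 to 71.6% in OE at low N and 25.5 to 57.0% in the other 9 libraries.

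Between OE and WT at normal N, 0 of the 4 genes in the filtered fit passed, against 23.8% of all tested genes (limma). At an unadjusted p under 0.05 it was also 0 of 4, against 36.6%. Without filter, 1 of 8 passed, lower in OE, against 18.4% of all genes called and 13.5% called lower. At low N the counts were 1 of 4 against 47.9%, and 2 of 8 without filter against 39.3%. Both were lower in OE, where 25.0% of all genes were called lower. For low N against normal N in WT they were 2 of 4 against 68.8%, and 4 of 8 without filter against 57.9%. All 4 of these were lower, and 19.5% of all genes were called lower in that fit.

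In OE, 1 of 4 genes passed for N supply against 69.7%, and 3 of 8 without filter against 57.4%. The latter were 2 lower and 1 higher, where 18.4% of all genes were called lower and 38.9% higher. The interaction was called for 0 of 4 against 35.9%, and for 0 of 8 without filter against 28.8%. At an unadjusted p under 0.05 it held 0 of 4, against 44.8%, and 1 of 8, against 38.5%. Direction in all genes depended on scaling: after median-of-ratios scaling without filter, the shares called lower in the 4 pairwise comparisons were 8.74%, 17.6%, 27.6% and 27.4%, in the order used here. The median log2 fold change of the 8 genes without filter was -0.10 for low N in WT and -0.03 in OE, beside 0.11 and 0.12 over all genes. For OE against WT it was -0.16 at normal N and -0.11 at low N, beside -0.06 and -0.06.

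The summed level of the 8 genes, which FPKM makes comparable across genes of different length, was highest in WT at normal N. The sum was 8.94, 9.32 and 9.20 FPKM there, 7.35, 6.18 and 7.49 FPKM in OE at normal N, 8.53, 6.76 and 6.86 FPKM in WT at low N, and 6.89, 5.59 and 4.46 FPKM in OE at low N. All WT normal-N libraries were above all others. WND4B supplied 12.4% of the sum in WT at normal N and 2.70% at low N, and in OE 14.8% and 1.61%. WND6A supplied 11.5% and 20.8% of the sum in WT at normal and low N, and 12.5% and 14.8% in OE.

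**Figure D3:**
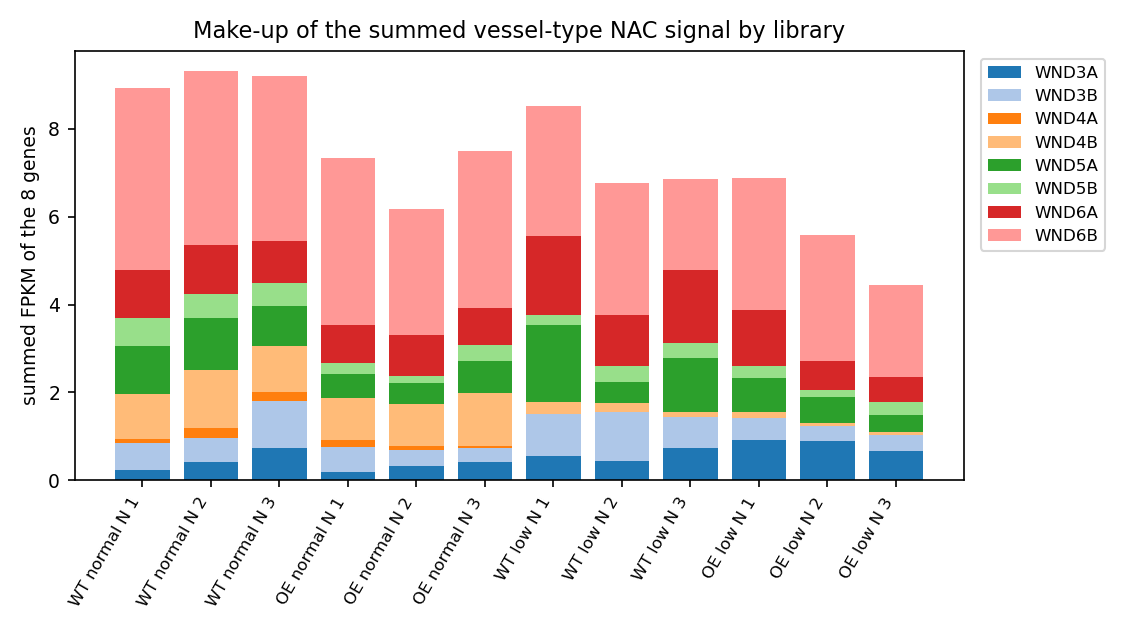
Summed FPKM of the 8 genes (y axis, from 0) in each of the 12 libraries (x axis), with each gene's part in its own colour. The WT normal-N sums lie between 8.94 and 9.32 FPKM, and the light orange part of WND4B shrinks to at most 0.275 FPKM in the low-N libraries.

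Other genes of the wall pathway were counted from lists of IDs entered as NACs of the fibre-type clade, as MYB regulators and as cellulose synthases of the secondary wall. The deposited table does not annotate these IDs, and the lists rest on general knowledge of the poplar genome. Like the 8 genes, the lists were chosen with earlier results of these data known. The shares of all genes beside their counts are therefore given as a description. The 5 cellulose synthase IDs were lower in OE than in WT at both N supplies, with 5 of 5 called each time (limma), where 17.3% of all tested genes were called lower at normal N and 30.3% at low N. Their median log2 fold changes were -0.85 and -0.54, beside -0.08 and -0.10 over all genes. At low N, 4 of 5 rose in each genotype, where 45.6% of all tested genes were called higher in WT and 46.9% in OE. The medians were 0.65 in WT and 0.86 in OE, beside 0.19 and 0.22. In WT at low N without filter, 4 of 8 vessel-type genes were called lower and 0 higher, against 19.5% and 38.4% of all genes. In OE 2 were called lower and 1 higher (WND3A), against 18.4% and 38.9%. WND4B was among the lower genes in both genotypes. After median-of-ratios scaling or quantile normalization, 3 of the 5 cellulose synthase IDs rose in WT, and their other counts stood. Without WT low-N replicate 1 or OE low-N replicate 2, 4 of 5 were lower in OE at low N. Potri.004G059600 had 7.76 ± 0.861 FPKM in WT at normal N, 3.51 ± 0.386 in OE at normal N, 13.95 ± 2.82 in WT at low N and 8.31 ± 1.80 in OE at low N (SD, n = 3).

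Potri.006G181900 rose at low N from 8.21 ± 0.814 to 13.6 ± 2.04 FPKM in WT, and Potri.011G069600 from 4.43 ± 0.531 to 6.66 ± 0.790. For Potri.002G257900, the most abundant of the 5 in every group, the WT levels were 18.4 ± 2.37 and 19.6 ± 2.94 FPKM, which was not called (limma adjusted p = 0.659).

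Of the 4 NAC IDs of the fibre-type clade, 3 passed the filter. Against WT, 1 of these 3 was lower in OE at normal N and 2 at low N, and 1 rose at low N in WT and 0 in OE (limma; at an unadjusted p under 0.05 also 0). The shares of all genes in the same order were 17.3%, 30.3%, 45.6% and 46.9%. The low-N genotype count was 0 in a fit on these groups alone, 0 without WT low-N replicate 3, without OE low-N replicate 2 or without OE low-N replicate 3, and 1 without WT low-N replicate 1. Without filter, 1 of 4 was lower in OE at normal N and 3 at low N, against 13.5% and 25.0%. In that fit 2 of 4 rose at low N in WT and 0 in OE, against 38.4% and 38.9%. The interaction was called for 1 of 4, against 28.8%. At a pseudocount of 0.1 the WT count was 1 and the interaction count 0. Potri.002G178700 was named after its values were seen. It was lower in OE at low N, at 0.279 ± 0.229 against 0.980 ± 0.173 FPKM in WT (limma adjusted p = 0.00116). Potri.014G104800 was lower in OE at both N supplies. WT and OE were at 1.76 ± 0.248 and 0.827 ± 0.109 FPKM at normal N and at 2.15 ± 0.393 and 1.27 ± 0.486 FPKM at low N (limma adjusted p = 0.0127 and 0.0167, and 0.0558 at normal N after quantile normalization). Its normal-N call was also lost without WT normal-N replicate 1. Potri.001G448400 rose at low N in WT, from 1.62 ± 0.311 to 3.10 ± 1.02 FPKM, and was lower in OE at low N, at 1.61 ± 0.896 FPKM (limma adjusted p = 0.0313 and 0.0311). The rise was not called after median-of-ratios scaling (limma adjusted p = 0.0846) or quantile normalization, nor without WT normal-N replicate 1 or 2 or WT low-N replicate 1 or 3. Potri.011G153300, at 5.04 ± 0.652 FPKM in WT at normal N and 3.97 ± 0.998 at low N, passed no test as deposited. After median-of-ratios scaling it was lower at low N in WT (-0.47, limma adjusted p = 0.00711) and in OE (-0.40, limma adjusted p = 0.0172).

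Of the 4 MYB IDs, 1 passed the filter. Potri.009G053900 went from 1.65 ± 0.139 to 2.91 ± 1.03 FPKM with low N in WT and from 0.933 ± 0.172 to 2.66 ± 0.826 FPKM in OE, and rose in both (limma adjusted p = 0.0195 and 0.000664). The WT call was lost after median-of-ratios scaling (limma adjusted p = 0.0737), after quantile normalization, without WT low-N replicate 1 and without WT normal-N replicate 2. At normal N, Potri.009G053900 was lower in OE than in WT without overlap but was not called (-0.46 ± 0.18, limma adjusted p = 0.0872). It was called lower with library weights, a pseudocount of 0.1, the replicate block or a fit on these groups alone. The same held without WT low-N replicate 1 or OE low-N replicate 1. At low N the genotypes overlapped (-0.09 ± 0.18, limma adjusted p = 0.716). Without filter, 2 of the 4 MYB IDs rose with low N in OE, against 38.9% of all genes called higher, and 1 in WT, against 38.4%. In that fit 1 of 4 was lower in OE at normal N, against 13.5% called lower. This was Potri.001G258700 (limma adjusted p = 0.0315), named after its values were seen.

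**Figure D4:**
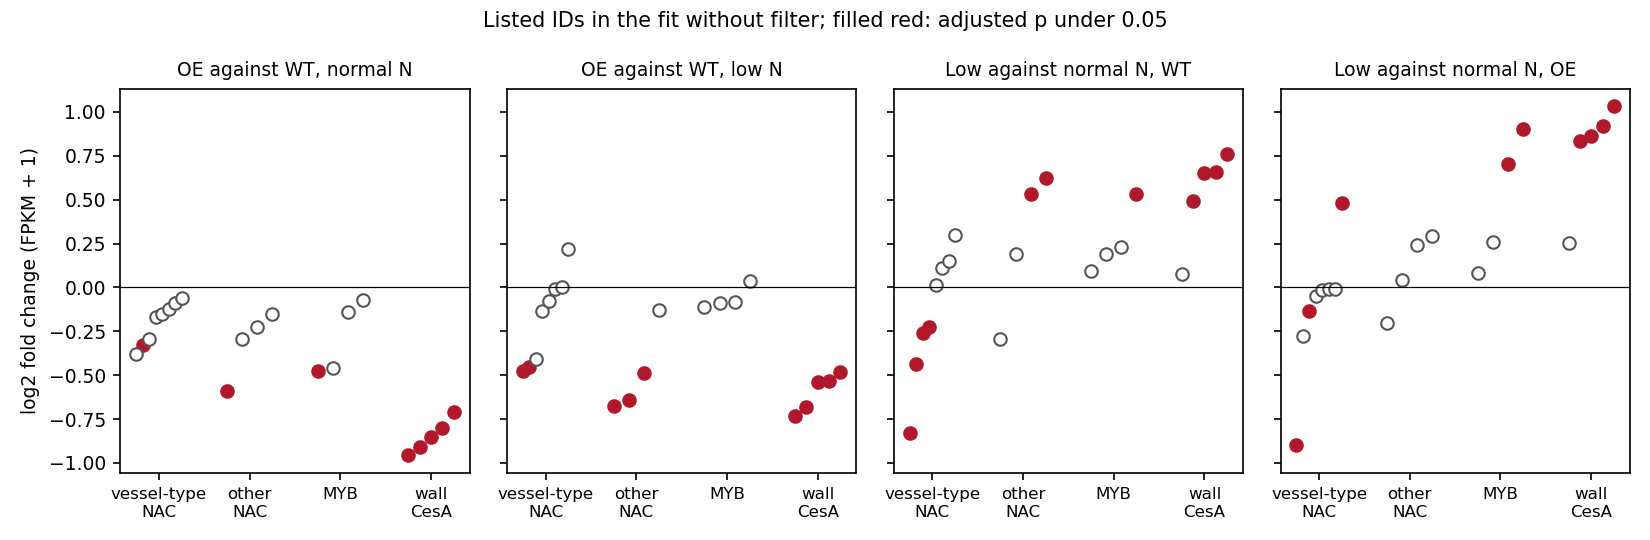
The log2 fold change of FPKM + 1 (y axis) from limma without filter for the vessel-type NAC genes, the fibre-type NAC IDs, the MYB IDs and the cellulose synthase IDs (x axis) in the 4 pairwise comparisons; each point is a gene, and filled red points have an adjusted p under 0.05. Under low N, 4 of the 5 cellulose synthase IDs lie above 0 as called genes in each genotype, and WND4B is the lowest point.

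Genes whose level followed these genes most closely over the 12 libraries were sought by Pearson's r of log2(FPKM + 1), among tested genes averaging 5 FPKM or more. The libraries form 4 groups, so such an r mainly follows the group means and is given as a description. For WND4B the closest were Potri.001G086400 (r = 0.992) and Potri.008G170700 (r = 0.991). Potri.001G086400 had 28.4 and 25.0 FPKM in WT and OE at normal N, and 8.81 and 7.47 FPKM at low N. The closest to WND6A were Potri.015G138600 and Potri.005G039900 (r = 0.930 each), of which the latter had 5.81, 4.59, 12.4 and 4.71 FPKM in WT and OE at normal N and in WT and OE at low N. For WND6B they were Potri.006G147700 (r = 0.946) and Potri.012G022000 (r = 0.937). For WND5A they were Potri.003G140100 (r = 0.884) and Potri.002G205600 (r = 0.867).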

How the data were processed

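The authors deposited FPKM values, 1 column for each unpooled library. TopHat and DESeq2 are named in the submitters' processing notes, with neither version nor role. The genome build, annotation and program behind the FPKM values were not given in the sources used here. CTAB was used for RNA extraction, per the labels' protocols. Columns were matched to samples by the short label in GEO's description field, and 0 other per-sample columns were present.

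Tests used R 4.3.3 and limma 3.58.1 (lmFit, then eBayes with trend and robust estimation) on log2(FPKM + 1) with 1 mean per group, 12 libraries and 8 residual degrees of freedom, in 5 contrasts, with Benjamini-Hochberg adjustment over 24570 genes, or 31539 without filter. No count test was run, since FPKM is not a count. The procedure was checked on simulated data. Relative depth was read from the commonest ratio of each library to WT, normal N, replicate 1, over genes that stayed below 0.15 FPKM, and the 8 genes were not among these.

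Alternatives were quantile normalization, median-of-ratios scaling, a pseudocount of 0.1, a filter at 5 FPKM or none, library weights, eBayes without trend or robust estimation, a fit on the groups compared alone, a replicate block, and each library left out. The plan gave genes below the filter by their values alone, and their tests were taken from the fit without filter after seeing the data. No filter together with a pseudocount of 0.1 was added after seeing the data. All 8 genes are named. Of each pathway list, the 2 tested IDs with the largest and the 2 with the smallest WT response to low N are named, and for each tested gene the 2 IDs most alike. Potri.001G258700 and Potri.002G178700 were named outside this rule. The genes and lists were chosen with earlier results of these data known. Lists defined by product name, including markers that would check the tissue, were not run because no annotation was used here. Pearson's r between replicates of a group was 0.976 to 0.996 on the log2 scale, and no pair of libraries shared identical values in more than 0.615% of genes.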

Additional observations from a re-analysis of the deposited data

How the results depend on the processing

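Of 40 log2 fold changes (8 genes in 5 contrasts), 10 were called, and 5 of these lost the call under at least 1 alternative. Genes below the filter were taken here from the fit without it. Among all genes, 23.8% to 69.7% were called per contrast with the filter and 18.4% to 57.9% without it. The alternatives gave 792 values, 1 for each gene, contrast and setting, and many came from the same fit. Of these values, 725 kept direction and side of the threshold, 21 lost a call, 11 gained one and 35 changed sign. All 35 belonged to fold changes that were not called. WND4B fell with low N in both genotypes under all 21 alternatives, at -2.06 to -0.76 in WT and -2.58 to -0.84 in OE on the log2 scale.

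The number of the 4 filtered genes called for OE against WT at normal N was 0, and it was 1 with library weights and 1 in a fit on these groups alone. For OE against WT at low N it was 1, with 0 in a fit on these groups alone and 0 to 2 when leaving out libraries. For low N in WT it was 2, with 1 to 3 when leaving out libraries. For low N in OE it was 1, with 2 after median-of-ratios scaling, 3 after quantile normalization and 1 to 2 when leaving out libraries. The interaction count was 0, with 0 to 1 when leaving out libraries. Without filter, at either pseudocount, 8 genes were tested and the counts in the same order were 1, 2, 4, 3 and 0, since more genes entered. A filter at 5 FPKM left none of the 8 genes. Among all genes, the call count for OE against WT at normal N was 5851, with 11246 under library weights and 3699 to 6553 when leaving out libraries, with 3699 without OE normal-N replicate 3 and 3899 without WT normal-N replicate 1. Apart from the entry of more genes without filter, the cause of these shifts was not tested.

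Sign changes of uncalled values were as follows. With library weights, the low-N response in OE of WND5A was 0.0249 and the genotype difference at low N of WND6B 0.0228. After median-of-ratios scaling, WND4B for genotype at normal N was 0.00628, WND5A for low N in WT -0.0966 and WND6B for genotype at low N 0.0661. After quantile normalization, low N in WT gave -0.0266 for WND3A, -0.0102 for WND3B and -0.168 for WND5A, and genotype gave 0.141 for WND4B and 0.0776 for WND6A at normal N and 0.0794 for WND6B at low N. A pseudocount of 0.1 gave -0.0392 for WND5A in WT, with or without filter. Leaving out libraries gave -0.000909 to 0.242 for WND3A in WT, -0.0672 to 0.0613 for WND3B in OE, -0.183 to 0.258 for WND5A in WT, -0.101 to 0.0887 for WND5A in OE, -0.0635 to 0.0474 for WND5B in OE and -0.213 to 0.0483 for WND6A in OE, all for N supply. It gave -0.121 to 0.0013 for the genotype difference of WND4B at normal N, -0.134 to 0.108 for that of WND6B at low N, and -0.269 to 0.172 for the interaction of WND5A.

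With the replicate block, the counts of filtered genes called were 0, 1, 2, 1 and 0, as without it, and WND4A lost its call in OE (adjusted p = 0.0714). Deviations of libraries with the same number correlated at -0.127 to 0.0942 across groups, so no pairing by number showed over all tested genes. With 3 libraries per group, this cannot exclude a pairing. Depth limits WND4A and WND4B at low N most, where 0 to 4 fragments stood behind a library.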

Other observations

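Within OE at low N, replicate 1 was the highest library for 6 of the 7 vessel-type NAC genes above 0 there, for 4 of 4 fibre-type NAC IDs and for 5 of 5 cellulose synthase IDs. Among the 4 MYB IDs it was the highest for 2 and the lowest for 1. In WT at low N, replicate 2 was the lowest library for 4 of 4 fibre-type NAC IDs and 5 of 5 cellulose synthase IDs, for 3 of 4 MYB IDs, and for 3 of the 7 vessel-type NAC genes above 0. Replicate 1 was the highest there for 1 of 4, 5 of 5, 2 of 4 and 3 of 7 in the same order. In OE at low N, replicate 2 was the lowest for 2 of 4, 5 of 5, 2 of 4 and 3 of 7. The spread of fragment numbers within groups, relative to what counting alone gives (a value of 1), was 0.524 for WND4B, 0.768 for WND5B and 1.20 for WND4A. It was 2.01 for WND6B, 2.10 for WND6A, 2.37 for WND5A, 2.49 for WND3A and 2.50 for WND3B. If true fragment numbers were a common multiple of those used, these values would be higher. The counting intervals given above leave out any spread beyond counting.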
